A study of Mus musculus with 8 samples.

Results

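The semaphorins, plexins and neuropilins form a guidance system of ligands and receptors, and 31 protein-coding genes of these families were followed in mouse lumbar sensory ganglia after a spinal nerve had been tied. Members were chosen by symbol alone: Sema with a digit and a letter (20 genes), Plxn with a letter and a digit (9 genes), and Nrp1 and Nrp2, out of 53801 genes counted, 21967 of them protein-coding. RNA sequencing gave 8 libraries, and each pooled the L3, L4 and L5 dorsal root ganglia of 3 mice. The mice are given as male C57BL/6J and the ligature as on the left L4 spinal nerve, per the labels' protocols, so an injured-side library also holds ganglia whose own nerve was left intact. Each of days 1, 3 and 7 had its own pool, with 1 injured-side library and 1 from the contralateral, uninjured side of these animals, and the last pool, labelled no injury, gave a left and a right library whose titles also carry the letters WT, which no title of an operated library does. The protocol also describes sham surgery, but no library is labelled sham.

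Semaphorins are guidance cues that steer axons and also act on vessels and immune cells. Class 3 proteins are secreted, those of classes 4 to 6 span the membrane and the class 7 protein is held by a lipid anchor. Plexins are the signalling receptors: their cytoplasmic part acts on small GTPases of the Ras family and so on adhesion and the cytoskeleton. Most class 3 ligands bind a neuropilin, which pairs with an A-type plexin, while class 4 ligands act mainly through B-type plexins, class 6 ligands through A-type plexins, Sema7a through Plxnc1, and Sema3e directly through Plxnd1. In sensory neurons the system is best known for the collapse of growth cones by Sema3a.

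The libraries held 20488115 to 21652688 counted reads each, and values are given as reads scaled to that total (CPM). A count of 0 allows up to 3 reads, or 0.139 to 0.146 CPM. Such limits cover counting error only. The injury gene Atf3 was at 464 to 629 CPM on the injured side, against 110 to 167 CPM contralaterally and 10.9 and 11 CPM in the pool labelled no injury. Sprr1a and Gal were also higher on the injured side in all 3 pools. Their contralateral levels reached 130 and 133 CPM, against at most 0.323 and 10.3 CPM without injury, so the contralateral side, called uninjured here because its nerve was not tied, was not at the level of that pool. Neuronal, satellite glial and Schwann cell markers were present in every library. The pool labelled no injury went against its label in 1 respect: reads of the female-specific Xist numbered 4931 and 4129 in its libraries, while no operated library had more than 3, and Kdm5d, on the Y chromosome, was at 0 reads in it but at 13.1 to 16.7 CPM in operated libraries. The contralateral library of day 1 also stood apart, with 6 neutrophil markers summing to 403 CPM against 18.8 to 211 CPM in the others, as did the right library of the pool labelled no injury, with 6 skeletal muscle markers summing to 1020 CPM against 14.3 to 143 CPM. Results that rest on either pool are therefore given without it where that changes them. With 1 library per day and side, the injured state was replicated across the 3 operated pools only. The p-values reflect only how the sides differ across these pools and the pool labelled no injury, with variance estimates shared across genes.

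Semaphorin and plexin genes changed on the injured side in both directions, with more rises than falls. Of the 30 members that passed the filter on low counts, 7 rose, 2 fell and 21 were not called (edgeR quasi-likelihood test over all genes, mouse pool as a block, Benjamini-Hochberg adjusted p under 0.05). The rises were those of Sema6a, Plxna4, Plxnb3, Sema4c, Sema3c, Plxnb2 and Sema6d, and the falls those of Sema5b and Plxnd1. Across all 16244 genes tested the same fit called 18.1% of genes, 10.1% as higher and 8.02% as lower, against 30.0%, 23.3% and 6.67% of the members. The median log2 fold change was 0.13 for the members and 0.02 for all genes. Without the day 1 pool 12 members were higher and 6 lower, without the day 3 pool 5 and 0, without the day 7 pool 4 and 0, and 5 and 0 when the uninjured pool was left out. When left or right side was added to the model, a term that the uninjured pool alone informs, 0 members were called by edgeR, and 5 were higher and 0 lower at an unadjusted p under 0.05, beside 879 higher and 641 lower of all 16244 genes. The calls of all 9 members were lost under that term, and this is not repeated for each. Their directions were kept and the standard errors were wider: Sema6a had a log2 value of 1.74 ± 0.31 in place of 1.77 ± 0.13, Plxna4 0.62 ± 0.23 in place of 0.68 ± 0.10, and Plxnb3 0.46 ± 0.22 in place of 0.64 ± 0.10 (SE).

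The single libraries were also set against each other without a model. In 7 members all 3 injured levels were above all 3 contralateral ones (Plxna4, Plxnb2, Sema3g, Sema4a, Sema4c, Sema6a and Sema6d), as in 14.7% of all genes, and in Plxnd1 and Sema3f all 3 were below, as in 15.7% of all genes. These levels are CPM of total counts, without TMM factors. For Sema3f the order rests on 39.3 against 39.4 CPM at day 1, where the TMM-scaled log2 ratio was 0.03. A side ratio of 2-fold or more in genes with at least 50 reads was reached by Sema6a at all 3 days, by Sema3g at day 3 and, downward, by Sema5b at day 7. Over all genes such a ratio was reached upward by 0.92% at day 1, 6.36% at day 3 and 3.07% at day 7, and downward by 1.45%, 1.08% and 0.725%.

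**Figure D1:**
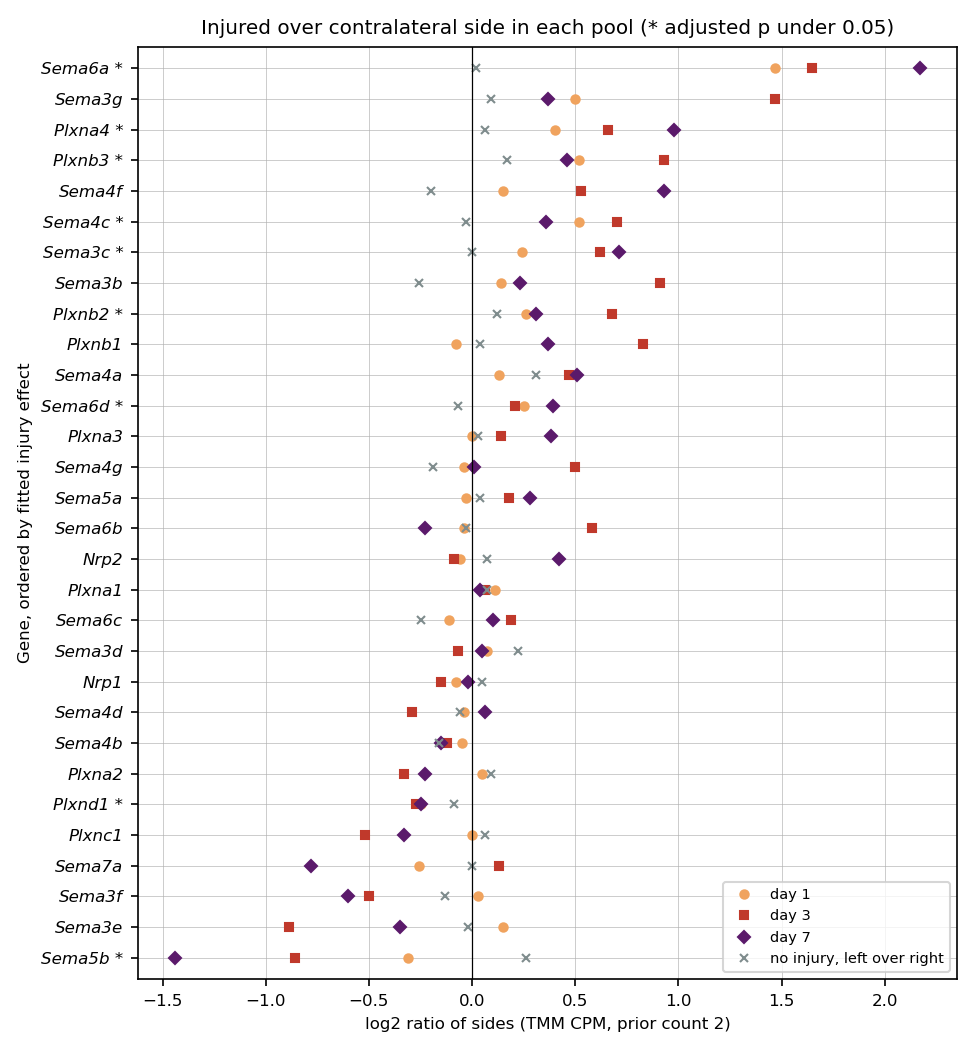
Log2 ratio of the injured over the contralateral side (x axis, TMM-normalised CPM, prior count 2) for the 30 members tested (y axis, ordered by fitted effect), with 1 point per operated pool and a cross for left over right without injury. Asterisks mark members with adjusted p under 0.05; Sema6a lies far to the right at all 3 days, and no left-right ratio exceeds 0.31 in size.

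Sema6a, a transmembrane semaphorin that signals through A-type plexins, had the widest difference of the 30 members (chromosome 18, 47235598 to 47368870, GRCm38, minus strand). At days 1, 3 and 7 it stood at 92.5, 161 and 159 CPM on the injured side. The contralateral side had 34.0, 49.7 and 35.1 CPM, and the left and right libraries without injury 14.8 and 14.4 CPM. Every injured library was above every contralateral one, and every contralateral one was above both uninjured ones. The fitted rise over the uninjured side was 3.41-fold (log2 1.77 ± 0.13, SE, 3 injured pools; edgeR adjusted p = 0.00169), in 3 of 3 pools, with day-by-day ratios of 2.78-fold, 3.15-fold and 4.50-fold. Sema6a was called under 9 of 10 alternatives, with log2 values of 1.56 to 2.20 and adjusted p from 2.96e-34 to 0.345, the last with side as a further term.

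Among the other class 6 genes, Sema6d, also a ligand of A-type plexins, was at 116, 134 and 139 CPM on the injured side, against 99.6, 113 and 106 CPM contralaterally. The injured levels were all higher than the contralateral ones, but the uninjured pool, at 113 and 117 CPM, reached the lowest injured level. Its rise was 1.22-fold (log2 0.29 ± 0.06, SE; edgeR adjusted p = 0.0169), in 3 of 3 pools. It was called under 7 of 10 alternatives (adjusted p 0.00592 to 0.511) and not without the day 7 pool (log2 0.23, adjusted p = 0.123) or without the pool labelled no injury (0.29, adjusted p = 0.0541). Sema6b and Sema6c were not called, with log2 values of 0.12 ± 0.17 and 0.06 ± 0.09 (SE).

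Of the 7 class 3 genes, which encode the secreted ligands, 1 rose, 5 were not called and Sema3a was not tested. Sema3c was at 22.7, 46.1 and 45.1 CPM on the injured side, compared with 19.7, 29.2 and 27.4 CPM on the contralateral side and 27.2 and 26.9 CPM without injury. The day 1 libraries were the lowest on either side, so the groups overlap although the injured side was higher in each pool. Sema3c rose 1.45-fold (log2 0.53 ± 0.09, SE; edgeR adjusted p = 0.0108). It was called under 6 of 10 alternatives (adjusted p 0.000111 to 0.528), and not without the day 3 pool (log2 0.49, adjusted p = 0.0566), without the day 7 pool (0.43, adjusted p = 0.0805) or without the pool block (0.53, adjusted p = 0.12).

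Sema3g, a ligand known from vascular endothelium, reached 53.5, 112 and 67.9 CPM on the injured side, with 38.6, 39.2 and 52.3 CPM on the contralateral side and 34.2 and 31.8 CPM without injury. All 3 injured levels were above all others, and the day 3 library was the highest by far. The side ratio was 1.41-fold, 2.77-fold and 1.29-fold at days 1, 3 and 7. The fitted log2 value of Sema3g, 0.78 ± 0.23 (SE), was not called (edgeR adjusted p = 0.0766). It passed under 3 of 10 alternatives (adjusted p 0.000557 to 0.669), among them the fit without the day 3 pool, where the value was smaller and its spread narrower (0.44 ± 0.07, SE, adjusted p = 0.0178).

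Sema3b, the class 3 gene with the highest level per length, was at 121, 245 and 223 CPM on the injured side, with 112, 127 and 190 CPM on the contralateral side. Without injury it was at 140 and 167 CPM, so the ranges overlap, and it was not called (log2 0.43 ± 0.17, SE; edgeR adjusted p = 0.133). Only the DESeq2 alternative called it, with adjusted p = 0.025 within a range of 0.025 to 0.576.

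Sema3f and Sema3e had negative values that were not called. Sema3f was at 39.3, 28.8 and 26.0 CPM on the injured side and between 39.4 and 39.7 CPM on the contralateral side. Its day 1 libraries were level, and its ratio was 0.708 at day 3 and 0.660 at day 7 (fitted log2 -0.35 ± 0.12, SE; edgeR adjusted p = 0.0908). Without the day 1 pool Sema3f was called lower (log2 -0.55, adjusted p = 0.000825), within a range of 0.000825 to 0.801. Sema3e, the ligand of Plxnd1, was at 26.4, 16.5 and 20.1 CPM on the injured side, compared with 24.3, 29.8 and 25.6 CPM on the contralateral side (fitted log2 -0.36 ± 0.18, SE; edgeR adjusted p = 0.227). It too was called without the day 1 pool (log2 -0.62, adjusted p = 0.00671, within a range of 0.00671 to 0.798).

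Sema3d stayed between 13.7 and 19.5 CPM in all 8 libraries, with a log2 value of 0.01 ± 0.09 (SE). The classical repellent Sema3a was near the limit of detection, with 5 to 11 reads per library (0.235 to 0.530 CPM), and did not pass the filter. Sema3a, Sema3c, Sema3d and Sema3e all lie on chromosome 5, between 12383385 and 17730268 (GRCm38), and Sema3c is the member of that group that was called.

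In class 4, whose membrane proteins act on B-type plexins, 1 of 6 genes rose. Sema4c (chromosome 1, 36548639 to 36558349, GRCm38, minus strand) was at 36.0, 38.2 and 38.9 CPM on the injured side. The contralateral side had 25.5, 22.8 and 30.2 CPM and the uninjured pool 25.2 and 25.4 CPM. The 3 injured libraries lay close together and above all the others. Its rise was 1.44-fold (log2 0.53 ± 0.08, SE; edgeR adjusted p = 0.0057), and it was called under 9 of 10 alternatives (0.44 to 0.61; adjusted p 4.37e-05 to 0.484). Exons of the noncoding gene D430040D24Rik cover 7.3% of its exon bases on the opposite strand, and that gene had 51 to 82 reads per library. With no strand setting stated, reads of the overlap cannot be told apart.

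Sema4f, the class 4 gene with the highest level per length, was at 151, 240 and 285 CPM on the injured side, against 139, 161 and 149 CPM contralaterally, with 116 and 132 CPM without injury. The injured level at day 1 lay among the contralateral ones, and those of days 3 and 7 were above them. With a ratio of 1.11-fold, 1.44-fold and 1.90-fold, the fitted log2 value of 0.54 ± 0.15 (SE) missed the threshold (edgeR adjusted p = 0.055). Sema4f was called under 3 of 10 alternatives, including without the day 1 pool (log2 0.73, adjusted p = 0.00419, within a range of 0.00135 to 0.54). Sema4a was at 12.9, 13.3 and 13.8 CPM on the injured side, compared with 12.0, 9.31 and 9.65 CPM on the contralateral side. It was not called (log2 0.37 ± 0.12, SE, edgeR adjusted p = 0.0718). Under 3 of 10 alternatives Sema4a was called, including without the day 1 pool (adjusted p = 0.0212, within a range of 0.0212 to 0.953). Left over right without injury, Sema4a had a log2 ratio of 0.31, the widest such ratio among the members. Sema4b, Sema4d and Sema4g had log2 values of -0.11, -0.09 and 0.16, none of them called.

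Of the 2 class 5 genes, which encode transmembrane proteins with thrombospondin repeats, Sema5b fell and Sema5a was not called. Sema5b, one of the scarcest members, was at 6.93, 4.21 and 2.32 CPM on the injured side, with 8.78, 7.53 and 6.45 CPM on the contralateral side and 6.60 and 5.45 CPM without injury. It was lower on the injured side in each pool, by ratios of 0.808, 0.550 and 0.368, and the groups overlap because both sides were highest at day 1. Sema5b fell to 0.555 of the uninjured side (log2 -0.85 ± 0.22, SE; edgeR adjusted p = 0.0358). The call was made under 5 of 10 alternatives (adjusted p 0.00233 to 0.535) and not without the day 3 pool (log2 -0.83), the day 7 pool (-0.59), the pool labelled no injury (-0.86) or the pool block (-0.63). Sema5a, a far more abundant gene, was at 95.1, 123 and 135 CPM on the injured side, with 99.5, 106 and 111 CPM on the contralateral side, and was not called (0.14 ± 0.07, SE; edgeR adjusted p = 0.18). Without the day 1 pool Sema5a was called higher (log2 0.23, adjusted p = 0.0236, within a range of 0.0236 to 0.987).

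Sema7a, the lipid-anchored ligand of Plxnc1, was at 96.6, 112 and 68.0 CPM on the injured side, against 118, 99.4 and 116 CPM contralaterally. The injured library of day 7 was the lowest of all 8, but the sides changed order at day 3 and Sema7a was not called (log2 -0.30 ± 0.16, SE; edgeR adjusted p = 0.259).

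**Figure D2:**
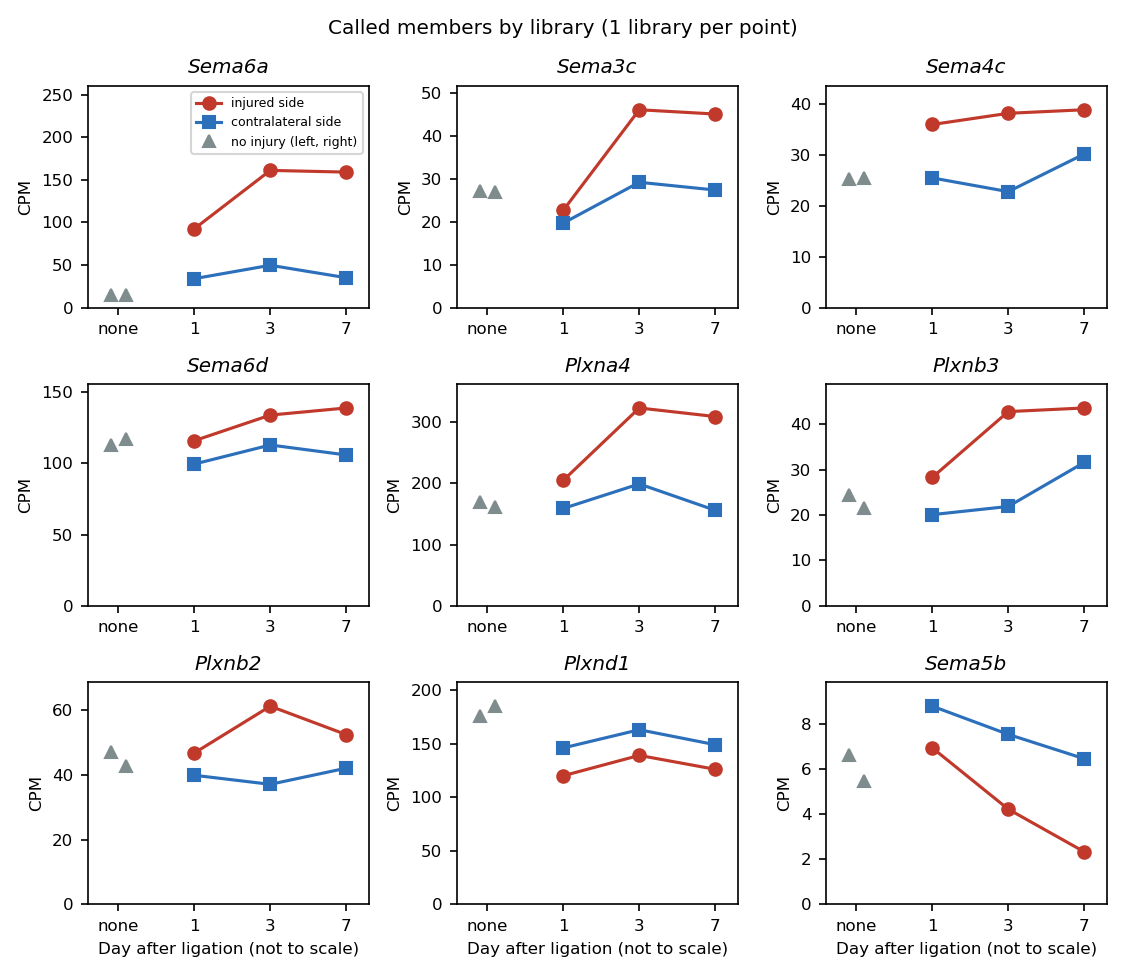
CPM (y axis, from 0) of the 9 called members against day after ligation (x axis, not to scale), with 1 library per point: injured side in red circles, contralateral side in blue squares, pool labelled no injury in grey triangles. Lines join the days and carry no error; Sema6a reaches 161 CPM on the injured side against at most 49.7 CPM on the other, and Sema5b and Plxnd1 run below the contralateral side.

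Among the A-type plexins, the signalling partners of neuropilins and receptors of class 6 ligands, 1 of 4 rose. Plxna4 (chromosome 6, 32144268 to 32588192, GRCm38, minus strand), a receptor of Sema3a and Sema6a, was at 205, 323 and 309 CPM on the injured side. On the contralateral side it was at 159, 199 and 156 CPM, and at 170 and 162 CPM without injury. Every injured library was above the 5 others, and the contralateral libraries spanned the uninjured ones. Its rise was 1.6-fold (log2 0.68 ± 0.10, SE; edgeR adjusted p = 0.00827), with ratios of 1.32-fold, 1.58-fold and 1.97-fold at days 1, 3 and 7. It was called under 8 of 10 alternatives (0.52 to 0.82; adjusted p 8.1e-08 to 0.518), and without the day 3 pool it lay at the threshold (log2 0.69, adjusted p = 0.0513).

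The other A-type plexins were not called. Plxna1 stayed between 73.2 and 87.4 CPM in all libraries (log2 0.07 ± 0.05, SE). Plxna2 was at 170, 139 and 122 CPM on the injured side, compared with 168, 171 and 143 CPM on the contralateral side, while the uninjured pool had more, 227 and 211 CPM (log2 -0.17 ± 0.08, SE; edgeR adjusted p = 0.172). X-linked Plxna3 was at 18.6, 32.3 and 36.8 CPM against 19.1, 28.5 and 28.2 CPM (0.18 ± 0.08, SE; adjusted p = 0.165). Both Plxna2 and Plxna3 were called without the day 1 pool (adjusted p = 0.0105 and 0.0471, within ranges up to 0.66 and 0.813).

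Of the B-type plexins 2 of 3 rose. Plxnb3, X-linked, was at 28.3, 42.8 and 43.6 CPM on the injured side, with 20.1, 21.9 and 31.6 CPM on the contralateral side and 24.5 and 21.5 CPM without injury. The injured library was higher in each pool, and the overlap comes from the contralateral library of day 7. Plxnb3 rose 1.55-fold (log2 0.64 ± 0.10, SE; edgeR adjusted p = 0.00818) and was called under 9 of 10 alternatives (0.46 to 0.72; adjusted p 4.3e-05 to 0.564), also without the pool labelled no injury (0.64, adjusted p = 0.03). Plxnb2 was at 46.8, 61.3 and 52.5 CPM against 39.9, 37.1 and 42.1 CPM, with 47.0 and 42.7 CPM without injury. Its injured levels were all above the contralateral ones, but that of day 1 was level with the left uninjured library. It rose 1.34-fold (log2 0.42 ± 0.09, SE; edgeR adjusted p = 0.0205), and was called under 6 of 10 alternatives (adjusted p 0.00101 to 0.648) and not without the day 3 pool (log2 0.29, adjusted p = 0.065), the day 7 pool (0.47, adjusted p = 0.0814) or the pool labelled no injury (0.42, adjusted p = 0.0556).

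Plxnb1, the third B-type plexin, was at 23.0, 43.7 and 44.3 CPM on the injured side, against 24.8, 23.8 and 34.1 CPM contralaterally, and was not called (log2 0.38 ± 0.16, SE; edgeR adjusted p = 0.153). Its sides were level at day 1 and apart at days 3 and 7, and without the day 1 pool it was called (log2 0.60, adjusted p = 0.00302, within a range of 0.00302 to 0.777).

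Plxnd1 (chromosome 6, 115954811 to 115995005, GRCm38, minus strand), the Sema3e receptor that is best known from vessels, was the plexin that fell. It was at 120, 139 and 126 CPM on the injured side, 146, 163 and 149 CPM on the contralateral side and 176 and 185 CPM without injury. The groups do not overlap, and the order was the same at each day. Plxnd1 fell to 0.836 of the uninjured side (log2 -0.26 ± 0.05, SE; edgeR adjusted p = 0.0177), with ratios of 0.841, 0.828 and 0.839. It was called under 6 of 10 alternatives (adjusted p 0.00311 to 0.665), and not without the day 3 pool (log2 -0.25, adjusted p = 0.0688), the day 7 pool (-0.27, adjusted p = 0.0989) or the pool labelled no injury (-0.26, adjusted p = 0.0521).

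Plxnc1, the Sema7a receptor and the plexin with the highest level, was at 380, 284 and 289 CPM on the injured side, against 387, 396 and 362 CPM contralaterally, with 430 and 407 CPM without injury. The sides were level at day 1, and at days 3 and 7 the injured library was lower than every other. Its fitted log2 value of -0.28 ± 0.10 (SE) was not called (edgeR adjusted p = 0.081), but it was lower under 3 of 10 alternatives, including without the day 1 pool (log2 -0.43, adjusted p = 0.00238, within a range of 0.00238 to 0.642).

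Neither neuropilin was called. Nrp1, the co-receptor of Sema3a and of VEGF, stayed at 50.1, 55.9 and 54.9 CPM on the injured side, compared with 54.1, 60.4 and 55.6 CPM on the contralateral side (log2 -0.08 ± 0.06, SE; edgeR adjusted p = 0.312). Nrp2, the co-receptor of Sema3f and Sema3c, was at 62.5, 85.9 and 116 CPM against 66.7, 88.9 and 85.8 CPM, level at days 1 and 3 and higher on the injured side at day 7 alone (fitted log2 0.09 ± 0.10, SE; adjusted p = 0.567). Of 5 VEGF family ligands, which neuropilins also bind, 2 fell: Vegfb by 0.40 and Pgf by 0.65 on the log2 scale. Over all genes 8.02% were called lower. Vegfa had a value of -0.11 and was not called.

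Per transcript length, receptors and ligands were expressed at overlapping levels. Plxnc1 had the highest mean over the 8 libraries, 43.9 CPM per kilobase of exon (RPKM), followed by Sema3b (34.7), Sema4f (32.4) and Sema7a (31.3). The ranges of these 4 over the libraries overlap, so their order is not fixed. Plxnd1 followed at 20.6 RPKM and Plxna4 at 14.9. Nrp2 and Nrp1 were at 7.13 and 5.85 RPKM, with overlapping ranges. Sema6a was at a mean of 1.66 RPKM without injury, 4.51 on the contralateral side and 15.6 on the injured side. On the injured side it thus lay near Plxna4, at 19.8 RPKM there, while without injury it was near the scarce Sema6b, at 1.61 RPKM.

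**Figure D3:**
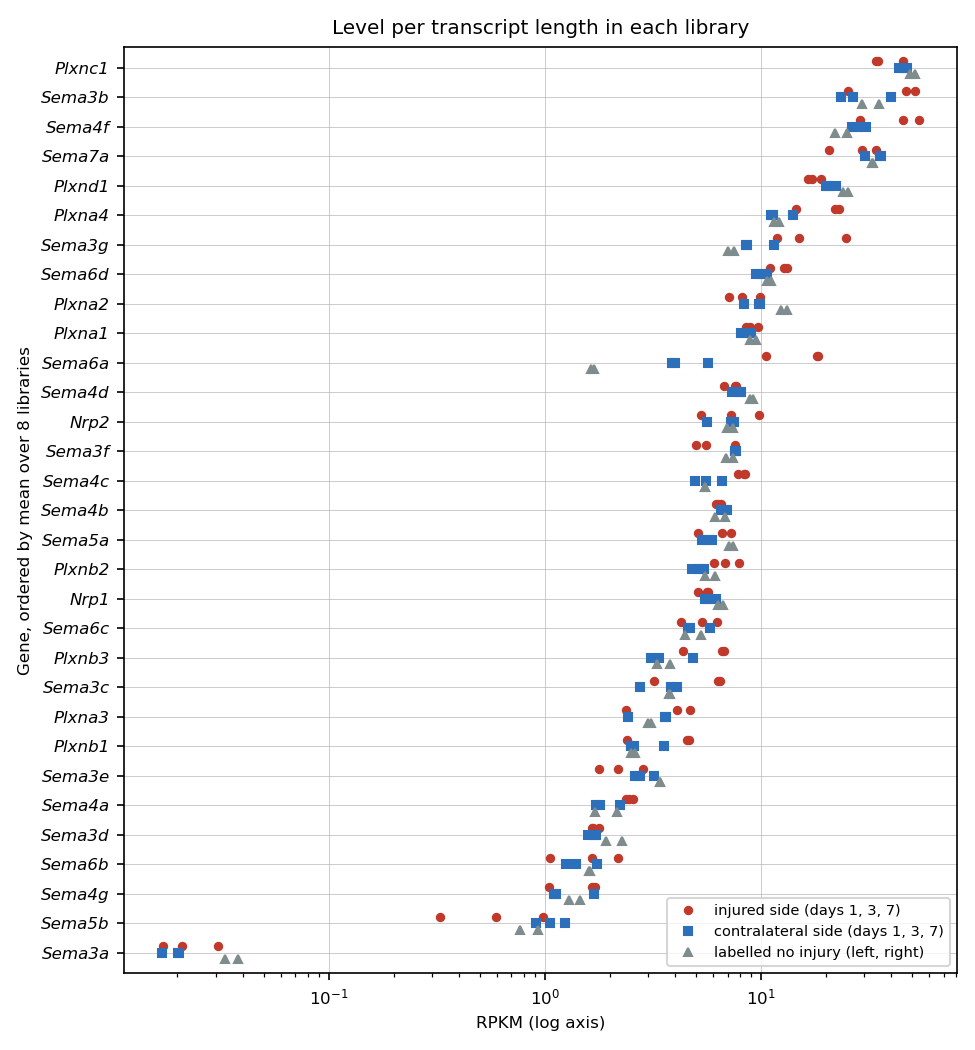
RPKM of each of the 31 members in each library (x axis, log scale), ordered by the mean over 8 libraries (y axis); red circles are the injured side, blue squares the contralateral side and grey triangles the pool labelled no injury. Sema6a spans 1.64 to 18.3 RPKM, and Sema3a lies far below the other members at 0.0170 to 0.0382 RPKM.

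Promoter sequence was set beside these values for the called members. RefSeq promoters (GRCm38.p6) were searched for 26 of the 31 members, with 37 start sites, and for 7 of the 9 called ones. No promoter of Sema6a, the member with the widest difference, or of Plxna4 was searched, so the motif results do not cover them. The 250 bases before each start were searched on both strands for motifs of injury-related factors: TGACTCA for AP-1, TGACGTCA for the cyclic AMP response element bound by ATF factors, TTCCNGGAA for STAT and AACAATNG for SOX factors. None of the 4 motifs overlapped another there. AP-1 letters were found at 2 of the 37 member starts, 1 each of Sema4c and Sema6b, against 4.46% of all 32851 promoters, and the other 3 motifs at 0, against 1.55%, 0.913% and 2.13%. Sema4c was called and Sema6b was not. Shown are 4 called members whose window lies outside the annotated exons of the gene itself, each from its upstream start, 5′ to 3′ on the strand of the gene (the Sema4c window also holds part of an exon of D430040D24Rik on the other strand), with the AP-1 letters in capitals:
Sema4c, higher, chr1:36558382-36558631, minus strand: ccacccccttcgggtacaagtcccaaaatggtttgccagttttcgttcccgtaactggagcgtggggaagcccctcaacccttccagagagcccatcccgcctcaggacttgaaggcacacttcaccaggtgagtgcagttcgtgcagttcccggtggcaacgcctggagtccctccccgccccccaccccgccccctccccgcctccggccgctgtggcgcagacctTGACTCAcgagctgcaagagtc
Plxnb2, higher, chr15:89180789-89181038, minus strand: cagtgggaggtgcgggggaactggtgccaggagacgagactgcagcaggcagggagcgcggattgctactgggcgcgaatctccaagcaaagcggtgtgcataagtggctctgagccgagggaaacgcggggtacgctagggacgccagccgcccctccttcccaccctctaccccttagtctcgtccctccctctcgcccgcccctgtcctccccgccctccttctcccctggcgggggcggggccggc
Sema6d, higher, chr2:124089719-124089968, plus strand: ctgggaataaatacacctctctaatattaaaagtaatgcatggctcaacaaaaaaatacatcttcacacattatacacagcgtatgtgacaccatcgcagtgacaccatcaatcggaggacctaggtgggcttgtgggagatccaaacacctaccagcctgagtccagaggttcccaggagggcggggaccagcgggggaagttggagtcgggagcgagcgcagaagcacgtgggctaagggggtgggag
Plxnd1, lower, chr6:115995006-115995255, minus strand: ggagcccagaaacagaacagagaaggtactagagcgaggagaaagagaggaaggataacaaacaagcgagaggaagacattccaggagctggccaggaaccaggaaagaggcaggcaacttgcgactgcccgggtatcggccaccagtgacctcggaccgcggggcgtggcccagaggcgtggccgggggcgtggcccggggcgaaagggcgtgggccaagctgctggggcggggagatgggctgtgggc
The capitals in the Sema4c window begin 22 bases before its start, and the other 3 windows hold none of the 4 motifs. G and C made up 64.4%, 69.2%, 52.4% and 64.8% of these windows, against a median of 52.4% over all promoters.

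The partners of the receptors were taken from lists of co-receptors and mediators and read from the same edgeR fit. That fit called 10.1% of all genes as higher and 8.02% as lower. With side as a further term 6 of all 16244 genes were called higher and 0 lower. Genes of this and the other lists were not followed through the alternatives. Of 17 co-receptors and other bound receptors tested, 7 rose and 0 fell, with a median log2 fold change of 0.39. Itgb1, the integrin chain that Sema7a engages, rose by 0.60 ± 0.08 and Itga1 by 0.45 ± 0.12 (log2, SE). Erbb2 and Met, receptor kinases that associate with B-type plexins, rose by 0.61 ± 0.09 and 0.93 ± 0.22, and Chl1, an adhesion partner of neuropilin, by 1.07 ± 0.20. Cspg4 and Kdr, also rising, are themselves markers of mural and endothelial cells. L1cam and Nrcam, further adhesion partners of neuropilins, had values of 0.02 and -0.05 and were not called.

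Of 34 cytoplasmic mediators 9 rose, 2 fell and 23 were not called, with a median of 0.09, beside 10.1% of all genes higher and 8.02% lower. Rnd1, a small GTPase that binds plexins, rose by 1.02 ± 0.17 (log2, SE). The collapsin response mediator Crmp1 rose by 0.58 ± 0.08 and the exchange factor Farp1 by 0.34 ± 0.07. Micall1, a Mical-like gene on the list, rose by 0.65 ± 0.06, while Mical1 and Mical3 (0.06 and 0.07) were not called. Rac1, Rhoa, Fyn, Mical2 and Limk2 rose by 0.22 to 0.30. Limk1 fell by 0.36 and Cdk5r1, the activator of Cdk5, by 0.28. Of the other collapsin response mediators Dpysl2 was at -0.20 and Dpysl5 at 0.25, neither called.

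Other guidance families behaved in mixed ways, beside 10.1% of all genes called higher and 8.02% lower. Of 19 slit, robo and netrin family genes 2 rose and 4 fell: Ntn1 rose by 0.74 ± 0.15 and Ntn5 by 1.10 ± 0.32, while Dscam fell by 0.60, Ntng1 by 0.68, Robo1 by 0.33 and Ntng2 by 0.29 (log2). Of 21 ephrin and Eph genes 4 rose, among them Ephb2 (0.98 ± 0.15) and Epha3 (1.16 ± 0.32), and 2 fell, Efnb2 and Epha6.

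Cell type markers were set beside the members, because in a bulk sample a change in the number of cells of a type cannot be told apart from a change of RNA per cell. The 8 endothelial markers summed to 153, 233 and 135 CPM on the injured side, compared with 136, 121 and 129 CPM on the contralateral side, and all 8 were higher on the injured side at day 3. Sema3g had its highest level in the same day 3 library, as did the macrophage and fibroblast sums (359 and 1970 CPM). Without injury the endothelial sum was 165 and 149 CPM, while Sema3g was at its lowest there, 34.2 and 31.8 CPM. Plxnd1 was lower on the injured side at every day. The 8 Schwann cell markers summed to 4660, 7790 and 8110 CPM against 4490, 4670 and 7480 CPM, and to 5540 and 7460 CPM in the left and right uninjured libraries. Sema3b took the same order in each of these 4 pairs. The 10 macrophage markers summed to 75.9, 359 and 353 CPM on the injured side against 128, 97.3 and 176 CPM: at day 1, 2 of the 10 were higher on the injured side. The contralateral library of that day is the one with the high neutrophil sum, and its Lyz2 and Ptprc were at 75.6 and 10.8 CPM against 33.8 and 2.39 CPM on the injured side, while Csf1r (10.5 and 10.3 CPM) and C1qa (10.1 and 10 CPM) were level. Of single markers 1 endothelial, 2 Schwann cell and 1 macrophage gene rose and 0 of these lists fell, beside 10.1% of all genes higher and 8.02% lower.

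**Figure D4:**
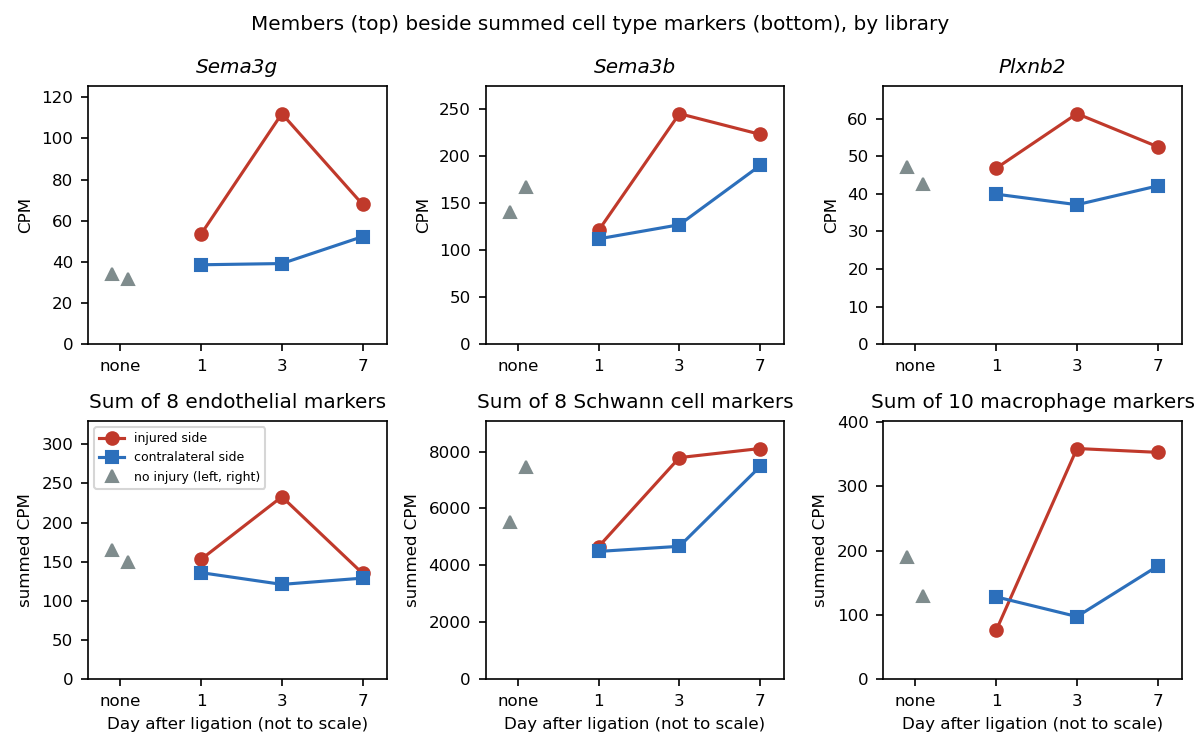
CPM of Sema3g, Sema3b and Plxnb2 (top row) above the summed CPM of 8 endothelial, 8 Schwann cell and 10 macrophage markers (bottom row) against day after ligation (not to scale), 1 library per point, axes from 0. Sema3g and the endothelial sum peak in the injured library of day 3, at 112 and 233 CPM, and Sema3b and the Schwann sum both run higher at day 7 than at day 1 on each side. Plxnb2 and the macrophage sum are both higher on the injured side at days 3 and 7. At day 1 Plxnb2 is higher there (46.8 against 39.9 CPM) and the macrophage sum lower (75.9 against 128 CPM).

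Sums of nociceptor and large-fibre markers were lower on the injured side at later days, and that of 8 pan-neuronal markers was 9620, 9740 and 10500 CPM against 9840, 10000 and 9730 CPM. The 8 nociceptor markers summed to 4020, 2570 and 2740 CPM on the injured side, with 3830, 3780 and 3530 CPM on the contralateral side, and the 8 large-fibre markers to 4100, 3680 and 3350 against 4430, 4430 and 4650 CPM. Plxnc1, Plxna2, Sema3e and Sema3f shared the pattern of the nociceptor sum, with the injured side level or higher at day 1 and lower at days 3 and 7. The single markers did not all follow that sum. At days 1, 3 and 7, 4, 1 and 2 of the 8 nociceptor markers were higher on the injured side, and P2rx3 was higher at each day. Of single genes 2 of the 8 nociceptor markers and 5 of the 8 large-fibre markers fell. Spp1, at log2 0.72 ± 0.18 (SE), was the 1 large-fibre marker that rose. Nefh made up much of the large-fibre sum, at 2760, 2340 and 2120 CPM on the injured side against 2990, 3100 and 3220 CPM contralaterally. Of the 8 pan-neuronal markers 3 fell and 0 rose, with a median log2 value of -0.25, although their sum was not lower at day 7. That sum holds Tubb3, at 4240 CPM on the injured side of day 7 against 2800 CPM contralaterally. Over all genes 10.1% were called higher and 8.02% lower. The 6 fibroblast markers summed to 706, 1970 and 1520 CPM against 481, 666 and 1050 CPM, all 6 were higher on the injured side at each day, and 3 of them rose. No marker of the endothelial, Schwann cell, macrophage, fibroblast and neuronal lists was at 0 in any library. The part of cell composition in the members' changes was not tested.

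Whether the side difference moved with time was asked with the injured state by log2 of the day. By edgeR 0 of the 30 members passed (adjusted p 0.249 to 0.998), as did 0% of the 16244 genes, while 9 members and 8% of all genes had an unadjusted p under 0.05. DESeq2 and limma-voom called 0 members as well, of 49 and 0 genes called. The lowest p was that of Sema4f, whose side difference grew by 0.28 ± 0.06 (log2 per doubling of days, SE; unadjusted p = 0.00177, adjusted p = 0.249). Sema6a followed with 0.24 ± 0.06 and Plxna4 with 0.21 ± 0.05, at adjusted p = 0.303 and 0.31. Among negative values Sema3f had -0.23 ± 0.06 and Sema5b -0.41 ± 0.12, at adjusted p = 0.382 and 0.468. With only 2 days left the trend is a contrast of single pools. Without day 1 it called 2 members, beside 12 genes rising and 82 falling of all 16480 tested. Without day 3 it called 6 members, beside 281 and 238 of 16434 genes, and without day 7 it called 7, beside 644 and 570 of 16386 genes. Without the uninjured pool it called 0 members and 0 of all genes, with 373 and 334 of these at an unadjusted p under 0.05.

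The contralateral side was last set against the pool labelled no injury, as a description, because that pool differs in its mice and in the sex shown by its RNA. In 4 members, Sema6a, Sema4f, Sema3g and Sema3f, all 3 contralateral libraries were above both uninjured ones, as were 17.9% of all genes. In 10 of the 30 tested members all 3 were below, as were 19.5% of all genes. Sema6a stood at 2.33, 3.40 and 2.40 times the uninjured mean on the contralateral side at days 1, 3 and 7, and 6.34, 11 and 10.9 times that mean on the injured side. Sema3g stood at 1.17, 1.19 and 1.58 times that mean on the contralateral side. Plxna2 stood lower than it, at 0.767, 0.781 and 0.653 on the contralateral and 0.776, 0.635 and 0.557 on the injured side. The operation and the difference between pools cannot be told apart in these ratios.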

How the data were processed

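RNA sequencing of lumbar dorsal root ganglia gave 8 libraries. The authors deposited 1 table of raw read counts for 53801 Ensembl genes, and those counts were used unchanged. The submitters' processing notes name the build GRCm38 and, without their role, the tools STAR 2.5.4a, cutadapt 1.16, DESeq2 and featureCounts 1.6.3. Neither a strand setting, nor a rule for multi-mapping reads, nor an annotation release is given in the sources used here. Reads of a gene and an overlapping antisense gene cannot then be told apart. Names, positions and exon lengths came from GENCODE M21 (GRCm38), which matched 53706 gene IDs. CPM used the total counts, and RPKM the union of exons.

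Genes that passed filterByExpr (minimum count 10) were tested by edgeR 4.0.16 (R 4.3.3) with its robust quasi-likelihood F test and TMM factors. The model held the mouse pool as a block plus the injured state, used all 8 libraries and left 3 residual degrees of freedom. Adjustment was by Benjamini-Hochberg over all genes at 0.05. For the time trend an interaction of injured state with log2 day, centred, was added, which left 2 residual degrees of freedom. Side ratios of single pools come from TMM-scaled log2 CPM (prior count 2), untested. Pairing of the sides by pool comes from the design text, where mice served as their own controls. The paired libraries' deviations from group means correlated by 0.249, -0.0618 and 0.356 in the pools of days 1, 3 and 7. No pair of libraries agreed within sampling noise (lowest chi-square per gene 6.46).

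Alternatives were no block, side as a further term, DESeq2 size factors, no filter on low counts, DESeq2 1.42.0, limma-voom (limma 3.58.1) and leaving out each pool. The members and gene lists were chosen with earlier results of these data known. Members given in full were those called, those with the highest RPKM of each family and those with a 2-fold side ratio at 1 or more days; of the partner and marker lists mainly the genes of lowest p were named, and the other members and genes were named after their values were seen. Motifs were chosen after the values were seen. The scripts were tested on simulated counts with planted changes.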

Additional observations from a re-analysis of the deposited data

How the results depend on the processing

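Over 10 alternatives the 9 called members never changed direction, and 65 of their 90 recomputed values kept the call. The number of members higher on the injured side, 7 as reported, was 0 with side as a further term and 4 to 12 when 1 pool was left out. The number lower, 2, was 1 with no replicate block (injured state alone), 0 with side as a further term and 0 to 6 when 1 pool was left out. Without the pool block 9 members were higher. The number with a time trend, 0, was 0 to 7 when 1 pool was left out. The cause was not tested. Over all genes the calls were 1644 higher and 1302 lower, against 6 and 0 with side as a further term, 2382 and 2287 without the day 1 pool, 651 and 334 without day 3, 475 and 156 without day 7, and 763 and 449 without the pool labelled no injury.

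Reversed signs were confined to members that were not called: Sema3d (-0.12 with no replicate block, -0.21 with side as a further term, -0.02 without the day 1 pool, -0.01 without day 7 and up to 0.06 without day 3), Sema4b (0.05 with side), Nrp2 (-0.08 without day 7, up to 0.19 without day 3), Sema4d (0.01 without day 3, down to -0.17 without day 7), Sema4g (-0.01 without day 3, 0.25 without day 1 and up to 0.36 with side), Sema6b (-0.13 without day 3, up to 0.27 without day 7) and Sema5a (-0.00 with no replicate block). Each day rests on 1 library a side. At 5 to 11 reads per library Sema3a is too scarce for a comparison.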
